A study of Mus musculus with 6 samples.

Results

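The MYC, MAX and MXD network is a set of basic helix-loop-helix leucine zipper genes that was chosen here as 10 named members: Myc, Mycn, Mycl, Max, Mxd1, Mxd3, Mxd4, Mxi1, Mnt and Mlx. Of these, 8 had a row in the count table of 29493 genes, and all 8 were among the 18067 genes tested. Mycn and Mycl had no row and are not analysed here. Total RNA for sequencing was taken from cells of the line labelled HT22-TR/TO-V5Klf13-1. This is a derivative of the mouse hippocampal neuronal line HT22 in which V5-tagged Klf13 is held under the tet repressor. The labels do not give the number of clones, and how RNA was selected for the libraries is not stated here. All 6 samples carry this transgene. Cells were given 1 µg/ml doxycycline, which releases the transgene (Dox, n = 3), or vehicle (n = 3), and were harvested after 8 hours. No group had doxycycline without the transgene, so an effect of the drug and one of KLF13 cannot be told apart. Whether replicates were separate cultures is not given, and the p-values therefore cover a spread between samples that could be technical alone.

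MYC proteins activate transcription as dimers with MAX on the E-box sequence CACGTG, and they promote ribosome production, nucleotide synthesis and cell cycle entry. The MXD proteins, which include MXI1, and MNT compete for the same partner and the same sites and recruit the SIN3 corepressor with its histone deacetylases. MLX is the partner of the glucose-sensing factors MondoA (Mlxip) and ChREBP (Mlxipl), and it also binds MXD1, MXD4 and MNT. KLF13 is a zinc-finger factor that binds GC-rich sites and can itself recruit SIN3A.

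The promoters of Mxd1, Mxd3, Mxd4 and Mnt, the 4 genes with the largest log2 fold changes, are shown first, because Mxd1 rose with Dox and the others fell. RefSeq promoter windows (GRCm38.p6, 250 bases before to 50 after a start) were available for 7 of the 8 measured genes, and Myc was not among them. The stretches below are the 150 bases before the outermost annotated start, 5′ to 3′ in the direction of transcription. Capitals mark every match, on either strand, to the GC box GGGCGG, the E-box CACGTG or the CACCC box CACCC, with overlapping matches allowed.

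Mxd1, chr6:86669162-86669311, minus strand: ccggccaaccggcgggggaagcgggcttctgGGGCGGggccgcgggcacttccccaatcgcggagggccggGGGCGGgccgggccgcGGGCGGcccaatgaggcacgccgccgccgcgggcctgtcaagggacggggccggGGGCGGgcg
Mxd3, chr13:55329824-55329973, minus strand: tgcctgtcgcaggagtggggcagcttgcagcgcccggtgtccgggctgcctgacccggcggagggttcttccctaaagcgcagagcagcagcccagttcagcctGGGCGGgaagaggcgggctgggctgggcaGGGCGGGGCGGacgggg
Mxd4, chr5:34187721-34187870, minus strand: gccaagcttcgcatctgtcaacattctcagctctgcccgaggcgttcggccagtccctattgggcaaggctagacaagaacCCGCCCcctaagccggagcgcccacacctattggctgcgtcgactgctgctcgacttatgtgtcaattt
Mnt, chr11:74830770-74830919, plus strand: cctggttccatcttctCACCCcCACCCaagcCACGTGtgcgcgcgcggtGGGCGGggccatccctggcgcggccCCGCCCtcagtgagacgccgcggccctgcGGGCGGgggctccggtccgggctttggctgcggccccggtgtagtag

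Within these stretches Mxd1, which rose, held 4 GC boxes, and of the genes that fell Mxd3 held 3, Mnt 3 and Mxd4 1. GC boxes therefore lay before genes that moved in either direction. The 7 genes had 9 full windows, 3 of them of Mxi1. A GC box lay in 7 of the 9 windows, all but those of Max and Mlx, against 35.7% of 32851 promoter windows of all genes. By gene, 5 of the 7 had one, since all 3 windows of Mxi1 held a GC box, and some of these windows overlap. The GC content of the 9 windows was 55.0 to 76.7%, and the windows of all genes were not matched for it. An E-box lay in 4 of 9, those of Max, Mlx, Mnt and Mxd4, against 7.15% of all windows. A CACCC box lay in 6 of 9, those of Max, Mxd4 and Mnt and all 3 of Mxi1, against 57.5%. Counted by gene, this was 4 of the 7. A match is a run of letters and not a measured binding site.

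Total counts per library ranged from 38566798 to 52930384. Klf13 rose in every Dox library, from 36.1 to 39.1 CPM (a gene's counts scaled to a common library size) with vehicle to 184 to 205 CPM with Dox. Of all tested genes, 54.7% were called at an adjusted p under 0.05 (edgeR quasi-likelihood test), 25.9% higher (4687 genes) and 28.8% lower (5203), so a call alone sets no gene apart. With upper-quartile scaling the same counts were 6246 higher and 4457 lower. In the fit limited to a mean of at least 5 CPM, 4074 of 11631 genes were higher and 4180 lower, larger shares than among all tested genes. The shares set beside the lists below are those of all tested genes, which include many with few reads. Of 23 neuronal markers, 15 had a row and 6 were tested. Their summed level was 79.0 to 80.0 CPM with vehicle and 26.7 to 27.3 CPM with Dox, most of it from Tubb3, which fell 4.13-fold from 60.7 CPM, whereas Slc17a7, Slc17a6, Grin1 and Gria2, which mark mature neurons, stayed under 10 counts in every library. Rbfox3 had no row. Among the 6 tested neuronal markers, 4 fell, 1 rose and 1 did not pass, beside 28.8% lower and 25.9% higher of all tested genes. The mean of Syn1 went from 11.2 CPM with vehicle to 6.62 CPM with Dox, and that of Eno2 from 4.80 to 2.64 CPM. Syt1 rose from few reads, 27 to 95 counts per library (log2 fold change 1.11 ± 0.26 SE, edgeR adjusted p = 0.01). Fibroblast markers were abundant, with 9 of 10 tested: their summed level was 16146 to 16571 CPM with vehicle and 13408 to 13819 CPM with Dox, and 6 of the 9 fell. Summed markers of astrocytes (6 of 7 with a row) were at 37.3 to 40.2 CPM with vehicle and 44.2 to 47.3 CPM with Dox, of oligodendrocytes (6 of 9) at 241 to 258 and 145 to 165, of microglia (7 of 7) at 35.4 to 37.5 and 26.7 to 28.4, and of endothelium (5 of 6) at 3.00 to 3.34 and 3.76 to 4.91. Within these lists some genes were near absent and others were not: Slc1a2, Sox10, P2ry12 and Cldn5 had fewer than 10 counts in every library, whereas the astrocyte marker Slc1a3 had 1395 to 2165, the oligodendrocyte precursor marker Cspg4 5208 to 9741 and the microglial marker Tmem119 846 to 1524. Among the microglial markers Tmem119 fell (log2 fold change -0.61) and Ptprc rose (0.43). Replication-dependent histone genes took 0.0053 to 0.0055% of counts with vehicle and 0.0088 to 0.0090% with Dox. Ribosomal protein genes took 5.65 to 6.16% of counts with vehicle and 6.60 to 6.81% with Dox, and mitochondrial genes 3.67 to 3.79% and 3.76 to 3.86%. TMM factors, which scale the library totals, were 0.970 to 0.980 with vehicle and 1.023 to 1.025 with Dox. Whether RNA quality differed between the groups was not tested. The part of these shifts in the results below was not tested.

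Myc itself fell with Dox, as did Mnt and 3 of the 4 MXD genes, while Mxd1 rose and the shared partners Max and Mlx did not pass the test. In counts, 5 of the 8 measured genes fell, 1 rose and 2 did not pass, where 28.8% of all tested genes fell and 25.9% rose. All 8 had a mean of at least 5 CPM. In the fit limited to that level their counts were the same, and 4180 of 11631 genes fell and 4074 rose. The median log2 fold change of the 8 was -0.37, beside 0.018 for all tested genes. The CPM ranges of the groups did not overlap for 6 of the 8, which was also so for 64% of all tested genes. In the authors' deposited table, which was made from the same libraries, the same 6 genes were called and Max and Mlx were not, beside 40.3% of the genes with an adjusted p there. The log2 fold changes in the authors' deposited table ran from -0.89 for Mxd4 to 0.76 for Mxd1. Levels are shares of a library, so that fewer cells expressing a gene and less RNA per cell cannot be told apart.

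**Figure D1:**
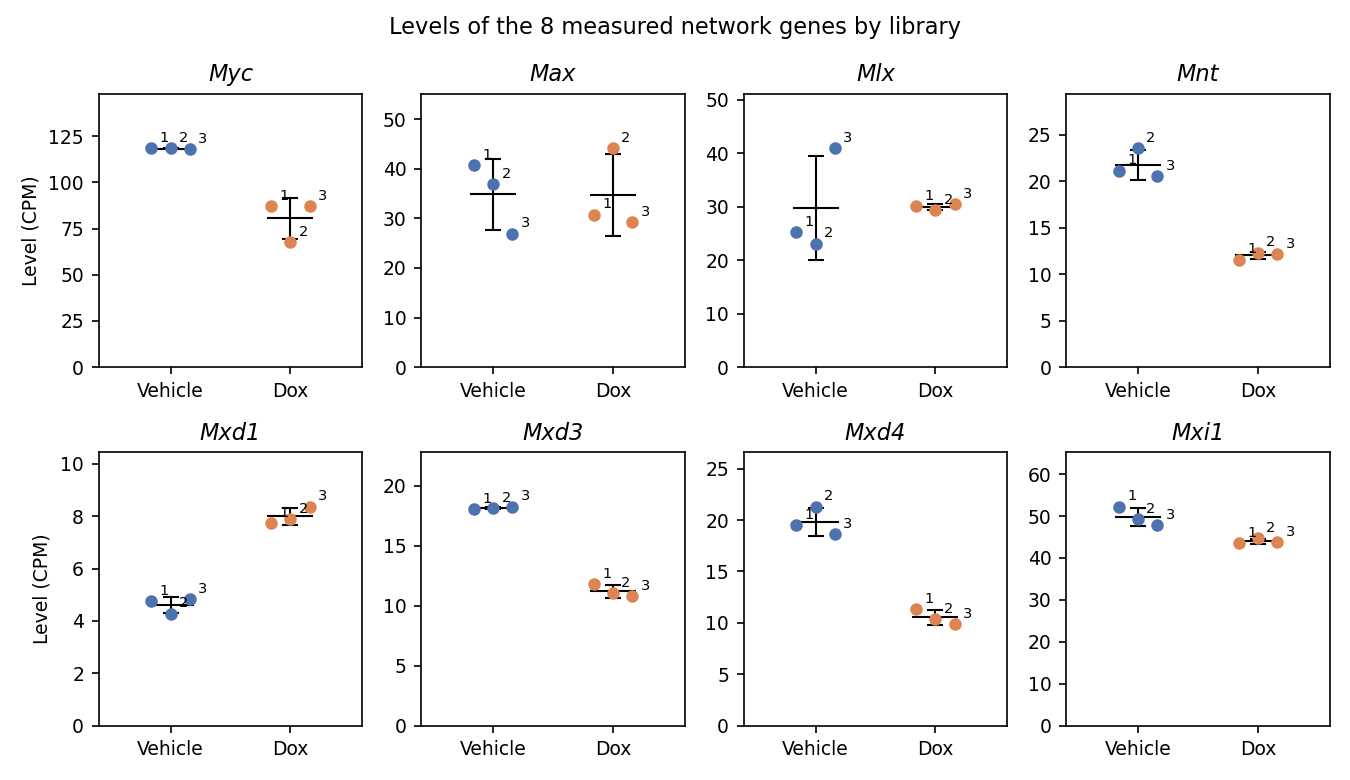
Levels in CPM (y axis from 0, a scale of its own for each gene) of the 8 measured genes in each vehicle (blue) and Dox (orange) library, numbered by replicate, with mean and SD as black bars (n = 3 per group). The groups are separate for Myc, Mnt, Mxd1, Mxd3, Mxd4 and Mxi1, while Max and Mlx each have 1 library well above the others of its group.

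Myc, the growth-promoting activator of the network, was at 119, 118 and 118 CPM in the vehicle libraries and at 87.1, 67.9 and 87.0 CPM in the Dox libraries. Every Dox library lay below every vehicle library, and Dox replicate 2 was the lowest. The fall was 1.47-fold (log2 fold change -0.55 ± 0.097 SE, edgeR adjusted p = 0.003). Without Dox replicate 2 it was -0.44 ± 0.027 (edgeR adjusted p = 0.00013), so the call did not rest on that library. Of all tested genes, 71.5% had a smaller change in either direction. Myc spans 61985391 to 61990374 on chromosome 15, plus strand, and no other gene shared 50 or more of its exonic bases, the least overlap recorded here (positions here and below from GENCODE M21 on GRCm38).

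Mnt, the broadly expressed repressor that opposes MYC in proliferating cells, was at 21.1, 23.5 and 20.5 CPM with vehicle and at 11.6, 12.3 and 12.2 CPM with Dox. The lowest vehicle library was well above the highest Dox library. The fall was 1.81-fold (log2 fold change -0.86 ± 0.066 SE, edgeR adjusted p = 6.7e-05). Mnt lies on chromosome 11, 74830920 to 74845725, on the plus strand.

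Mxd4 and Mxd3, MXD repressors that also recruit SIN3, both fell. Mxd4 was at 19.5, 21.3 and 18.6 CPM with vehicle and at 11.3, 10.4 and 9.91 CPM with Dox, a 1.88-fold fall (log2 fold change -0.91 ± 0.076 SE, edgeR adjusted p = 9.5e-05). Mxd3, which unlike its relatives is known from S phase of dividing cells, was at 18.0, 18.2 and 18.2 CPM with vehicle and at 11.8, 11.02 and 10.8 CPM with Dox. Its fall was 1.62-fold (log2 fold change -0.70 ± 0.050 SE, edgeR adjusted p = 5e-05). In both genes every Dox library lay below every vehicle library. The SD was 6.86% of the mean with vehicle and 6.95% with Dox for Mxd4, and 0.61% and 4.75% for Mxd3. Among 11632 genes with at least 5 CPM the medians were 4.01% and 3.46%. The 95% intervals of the changes of Mnt (-1.01 to -0.70), Mxd4 (-1.09 to -0.73) and Mxd3 (-0.82 to -0.58) overlapped, and differences between these falls were not tested. Mxd3 (chromosome 13, 55325168 to 55329823, minus strand) shares 105 exonic bases with Prelid1 on the opposite strand. Prelid1 was at 315 to 327 CPM with vehicle and 338 to 349 CPM with Dox, and the strand setting of the counting is not given in the sources used here, so reads of the 2 genes cannot be told apart there. Mxd4 lies on chromosome 5, 34173883 to 34187720, on the minus strand, and Gm42846, which shares 514 of its exonic bases, had at most 2 counts in a library.

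Mxd1, the founding MXD repressor, which is associated with exit from the cell cycle, was the exception in direction. It was at 4.74, 4.27 and 4.84 CPM with vehicle and at 7.73, 7.88 and 8.36 CPM with Dox, so that all 3 Dox libraries were above all vehicle libraries. The rise was 1.73-fold (log2 fold change 0.79 ± 0.069 SE, edgeR adjusted p = 0.00012), with a 95% interval from 1.54-fold to 1.94-fold. It had the lowest level of the 8 genes, with 178 to 251 counts per vehicle library and 329 to 389 per Dox library. Mxd1 lies on chromosome 6, 86647042 to 86669161, on the minus strand.

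Mxi1, the fourth MXD repressor, changed least among the 6 called genes. It was at 52.2, 49.3 and 47.9 CPM with vehicle and at 43.6, 44.7 and 43.7 CPM with Dox. The groups were separate by a narrow margin, and the fall was 1.13-fold (log2 fold change -0.18 ± 0.041 SE, edgeR adjusted p = 0.01). The call was lost with upper-quartile scaling (-0.085, edgeR adjusted p = 0.12) and with an offset for transcript length (-0.053, adjusted p = 0.36). Mxi1 lies on chromosome 19, 53310518 to 53375810, on the plus strand, and has 3 RefSeq promoter windows, so that its counts can join transcripts from different starts. Gm10197, which shares 194 of its exonic bases on the opposite strand, had at most 3 counts in a library.

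**Figure D2:**
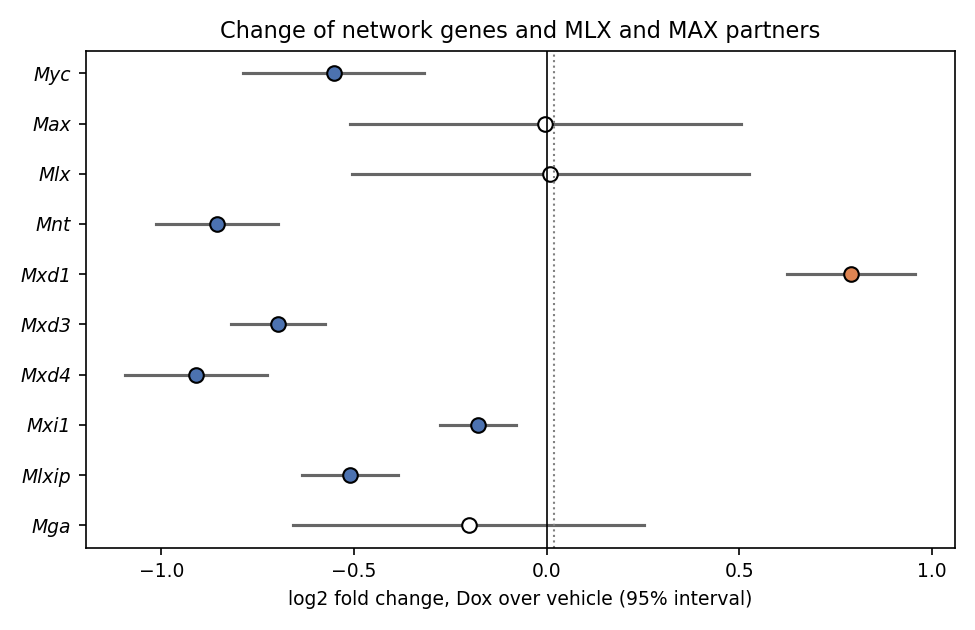
Log2 fold change of Dox over vehicle (x axis) with its 95% interval for the 8 measured network genes, Mlxip and Mga, filled orange where higher, blue where lower and open where not past the test. Mxd1, at 0.79, is the only called gene to the right of 0, and the dotted line at 0.018 is the median of all tested genes.

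The dimer partners Max and Mlx did not pass, and in both the spread within a group was large. Max, on which MYC, MXD and MNT proteins all depend, was at 40.7, 37.0 and 26.9 CPM with vehicle and at 30.7, 44.1 and 29.2 CPM with Dox. The groups overlapped over most of their ranges, with vehicle replicate 3 the lowest and Dox replicate 2 the highest of the 6. The log2 fold change was -0.0040 ± 0.21 SE (edgeR adjusted p = 0.99), with a 95% interval of -0.51 to 0.50. Leaving out 1 library at a time moved it between -0.21 (without Dox replicate 2) and 0.12 (without vehicle replicate 1), with no call. Its sign also turned with upper-quartile scaling (0.089). A change of up to 1.42-fold up or down thus lies within the interval. Max lies on chromosome 12, 76937269 to 76962201, on the minus strand.

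Mlx was at 25.2, 23.1 and 40.9 CPM with vehicle and at 30.1, 29.3 and 30.5 CPM with Dox. Vehicle replicate 3 was above all other libraries, and the remaining vehicle libraries were below every Dox library. With all 6 libraries the log2 fold change was 0.0092 ± 0.21 SE (edgeR adjusted p = 0.98, 95% interval -0.51 to 0.52). Without vehicle replicate 3 Mlx was called higher, at 0.31 ± 0.057 (edgeR adjusted p = 0.0071), so 1 library decided this result. The SD of the vehicle libraries was 32.8% of the mean for Mlx and 20.4% for Max. Among 11632 genes with at least 5 CPM the median was 4.01%, and 2.01% of these genes had a vehicle spread as large as that of Mlx. Mlx (chromosome 11, 101087277 to 101092207, plus strand) shares 385 exonic bases with Psmc3ip on the opposite strand. Psmc3ip was at 23.0, 22.3 and 25.1 CPM with vehicle and at 43.4, 44.7 and 43.4 CPM with Dox, with no jump in vehicle replicate 3, and reads from the shared bases cannot be assigned to either gene.

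**Figure D3:**
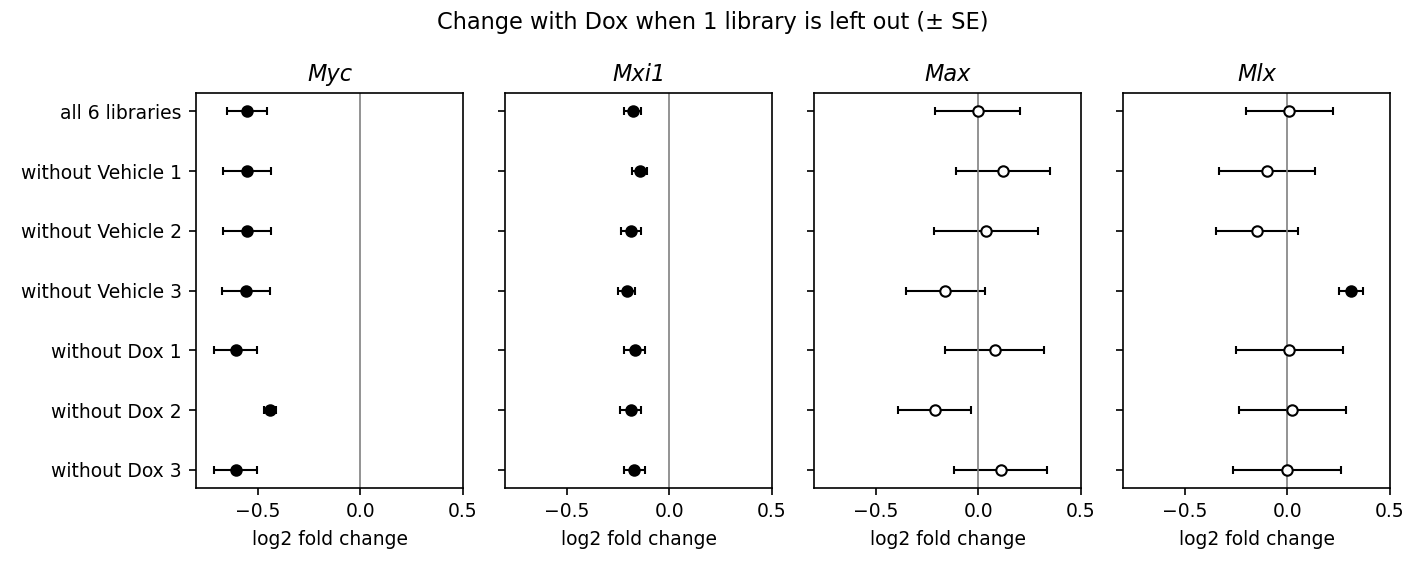
Log2 fold change of Dox over vehicle (x axis) ± SE for Myc, Mxi1, Max and Mlx with all 6 libraries and with each library left out, filled where the edgeR adjusted p was under 0.05. Myc and Mxi1 are filled in every row, Max is open in every row, and Mlx is filled only without vehicle replicate 3.

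Of the other zipper partners of MAX and MLX, Mlxip fell and Mga did not pass. Mlxip, which encodes MondoA, was at 94.5, 105 and 101 CPM with vehicle and at 68.3, 73.8 and 68.6 CPM with Dox (log2 fold change -0.51 ± 0.052 SE, edgeR adjusted p = 0.00023). Mga, a MAX partner that acts in a Polycomb complex, was at 107, 124 and 71.6 CPM with vehicle and at 87.4, 90.6 and 85.1 CPM with Dox (log2 fold change -0.20 ± 0.19 SE, edgeR adjusted p = 0.41). As for Max and Mlx, vehicle replicate 3 stood apart, and without it Mga was called lower (-0.40, edgeR adjusted p = 0.0066). Mlxipl is not analysed here.

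Levels of different genes were compared per length, as CPM per kb of the longest annotated transcript. In vehicle cells Myc was the highest of the 8 at 50.6 ± 0.14 CPM per kb (SD, n = 3). It was followed by Max at 17.9 ± 3.66, Mlx at 15.1 ± 4.96, Mxd3 at 13.7 ± 0.084, Mxi1 at 9.89 ± 0.44, Mxd4 at 5.12 ± 0.35, Mnt at 4.74 ± 0.35 and Mxd1 at 0.990 ± 0.065 CPM per kb (SD, n = 3 each). The libraries of Mlx overlapped those of both Max and Mxd3, and those of Mxd4 overlapped those of Mnt, so these neighbours could not be ordered. Myc stood above 89% of all tested genes with a length, and Mxd1 above 21.1%.

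With Dox, Myc remained the highest at 34.5 ± 4.74 CPM per kb and Mxd1 the lowest at 1.71 ± 0.071 (SD, n = 3 each). Mxi1, at 8.74 ± 0.12, and Mxd3, at 8.44 ± 0.40 CPM per kb, overlapped, as did Max with Mlx and Mxd4 with Mnt. With the length of all exons joined in place of the longest transcript, Mlx was above Max and Mnt above Mxd4 in both groups.

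**Figure D4:**
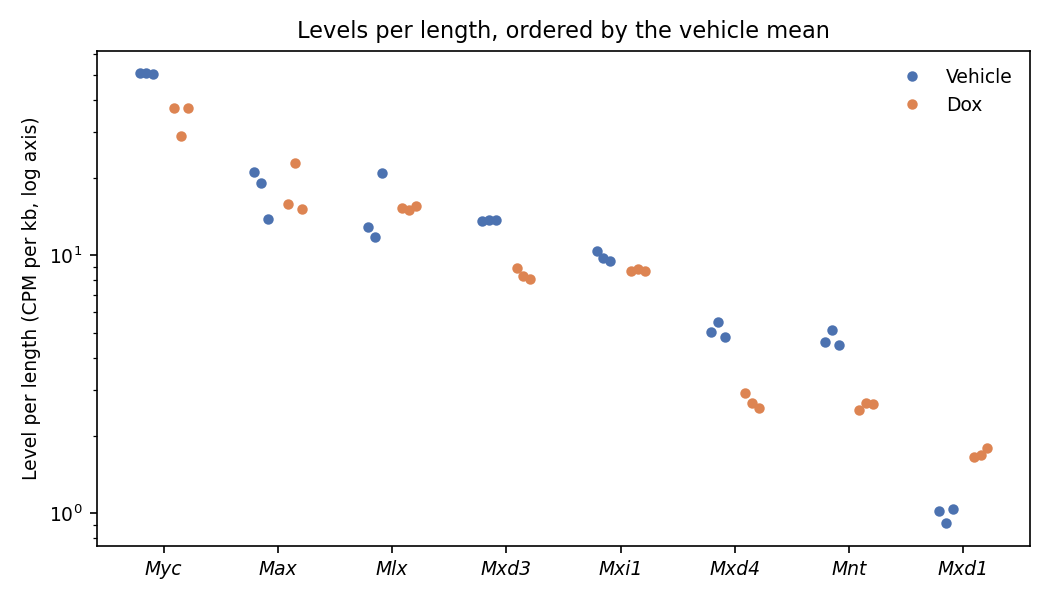
Level per length (CPM per kb of the longest transcript, log axis) of the 8 measured genes in each vehicle (blue) and Dox (orange) library, ordered by the vehicle mean. Myc leads in both groups, at 50.6 and 34.5 CPM per kb on average, and Mxd1 is the lowest in both.

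The summed level per length of the repressors Mxd1, Mxd3, Mxd4, Mxi1 and Mnt was 34.4 ± 0.74 CPM per kb with vehicle and 24.2 ± 0.42 with Dox (SD, n = 3 each). Myc fell alongside it, and the ratio of Myc to this sum was 1.465, 1.447 and 1.502 in the vehicle libraries and 1.511, 1.198 and 1.564 in the Dox libraries. The groups overlapped in this ratio, and Dox replicate 2, which had the lowest Myc, was the lowest. The make-up of the sum differed between groups. Mxd1 gave 2.88 ± 0.24% of it with vehicle and 7.07 ± 0.41% with Dox, and Mxi1 28.7 ± 1.07% and 36.1 ± 0.83%. Mxd3 gave 39.8 ± 1.04% and 34.8 ± 1.08%, Mxd4 14.9 ± 0.74% and 11.2 ± 0.59%, and Mnt 13.8 ± 0.77% and 10.8 ± 0.51% (SD, n = 3 each). These sums are descriptions with no test, and they depend on the lengths used: with joined exons the mean ratio was 1.92 with vehicle and 1.84 with Dox.

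Genes that control the stability of MYC protein were then listed, since protein was not measured. Of 18 such genes, 8 fell, 7 rose and 3 did not pass, beside 28.8% and 25.9% of all tested genes. In the test against a change of 1.2-fold, 7 fell and 2 rose. Usp28, a deubiquitinase that stabilises MYC, had 28.5 ± 0.63 CPM in vehicle and 4.91 ± 0.65 CPM in Dox cells (SD, n = 3 each), a 5.78-fold fall (edgeR adjusted p = 4.7e-06). Btrc, the F-box subunit beta-TrCP, was 2.84-fold lower (21.6 ± 0.36 and 7.61 ± 0.48 CPM), and Stub1, the ubiquitin ligase CHIP, fell 1.59-fold. Usp36, a nucleolar deubiquitinase of MYC, rose by 0.80 ± 0.031 on the log2 scale, with 122 ± 2.11 CPM in vehicle and 212 ± 6.75 CPM in Dox cells. The kinase gene Aurka rose by 0.50 ± 0.039 and the F-box gene Skp2 by 0.27 ± 0.031 on the log2 scale, the latter not called against 1.2-fold (edgeR adjusted p = 0.36). Of the 2 named deubiquitinases 1 rose and 1 fell, and so it was for the ligase genes Skp2 and Stub1, whose products promote MYC degradation. Fbxw7, the F-box gene best known for MYC turnover and named here after its values were seen, did not pass (log2 fold change -0.12 ± 0.17 SE, edgeR adjusted p = 0.60).

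Of 19 genes for coactivators and other nuclear partners of MYC, 9 fell, 4 rose and 6 did not pass, against 28.8% lower and 25.9% higher among all tested genes. Their median log2 fold change was -0.14, that of all tested genes 0.018. With upper-quartile scaling 6 fell and 6 rose, and with the GC offset 6 fell and 5 rose. Trrap, the scaffold through which MYC binds acetyltransferase complexes, fell 1.98-fold, with 161 ± 6.21 CPM in vehicle and 81.4 ± 3.11 CPM in Dox cells (SD, n = 3 each; edgeR adjusted p = 6.6e-06). The acetyltransferase genes Kat5 (TIP60) and Crebbp fell by 0.81 ± 0.056 and 0.42 ± 0.046 on the log2 scale. Paf1, a subunit of an elongation complex, rose by 0.84 ± 0.040, the elongation factor gene Supt5 by 0.34 ± 0.022 and the helicase gene Ruvbl2 by 0.36 ± 0.028 (SE).

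The corepressor that MXD and MNT proteins recruit was represented by 19 genes of the SIN3 and histone deacetylase complex, of which 11 fell, 3 rose and 5 did not pass, where 28.8% of all tested genes fell and 25.9% rose. The median log2 fold change was -0.23, beside 0.018 for all tested genes. Sin3a, the scaffold bound by the MXD proteins, was at 65.4, 76.7 and 66.1 CPM with vehicle and at 22.8, 25.05 and 21.8 CPM with Dox, a 2.99-fold fall (edgeR adjusted p = 1.4e-05). Ing2, a subunit that reads histone methylation, fell 2.13-fold and the histone-binding subunit Rbbp7 1.58-fold. Brms1 rose by 0.62 ± 0.029 and Fam60a (now Sinhcaf) by 0.54 ± 0.060 on the log2 scale. Kdm5a, a histone demethylase, was at 0.14 ± 0.047 (edgeR adjusted p = 0.044), a call lost without vehicle replicate 1 or 3 (edgeR adjusted p = 0.098 and 0.085) and without any 1 of the Dox libraries (0.052 to 0.11).

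Among genes commonly described as activated by MYC, rises outnumbered falls although Myc itself fell. Of 40 such genes, 24 rose, 8 fell and 8 did not pass, beside 25.9% higher and 28.8% lower in all tested genes, and their median log2 fold change was 0.14, beside 0.018. With upper-quartile scaling 27 rose and 3 fell, and with a test against a change of 1.2-fold 11 rose and 2 fell. In the fit limited to a mean of at least 5 CPM, 25 of 39 rose and 7 fell, where 4074 of 11631 genes rose and 4180 fell. The 3 with the smallest p were Rrp12, Nolc1 and E2f2. Rrp12, a ribosomal RNA processing factor, was at 143 ± 3.40 CPM with vehicle and 278 ± 2.14 CPM with Dox, and Nolc1, a nucleolar phosphoprotein, at 406 ± 4.03 and 634 ± 3.49 CPM (SD, n = 3 each). E2f2, a cell cycle transcription factor, rose by 1.03 ± 0.036 on the log2 scale (edgeR adjusted p = 3.4e-06). Tert, the telomerase reverse transcriptase, was at 4.47 ± 0.58 CPM with vehicle and 0.652 ± 0.28 CPM with Dox, a 6.76-fold fall from few reads (14 to 41 counts per Dox library; edgeR adjusted p = 0.00033). The cyclin gene Ccnd2 fell by 0.34 ± 0.023 and the cap-binding factor gene Eif4e by 0.30 ± 0.035 on the log2 scale. The nucleolin gene Ncl, named here after its values were seen, did not pass (-0.00035 ± 0.025, edgeR adjusted p = 0.99).

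**Figure D5:**
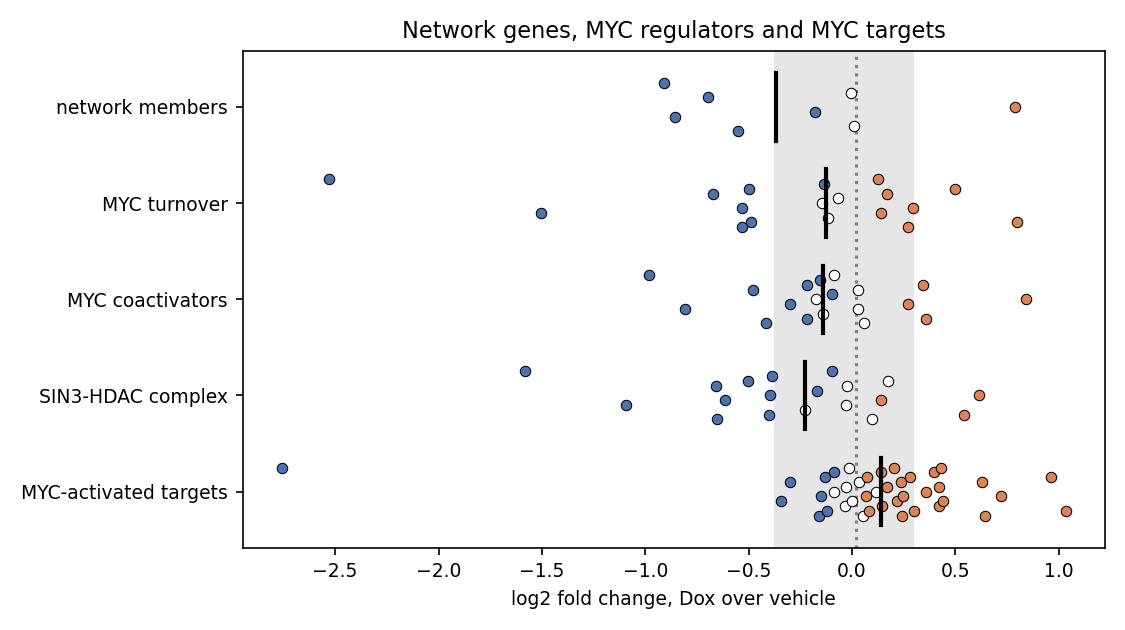
Log2 fold change of Dox over vehicle (x axis) of each tested gene in 5 lists, orange where higher, blue where lower and open where not past the test, with the list median as a black bar. The grey band spans the quartiles of all tested genes (-0.37 to 0.29), and the medians run from -0.37 for the 8 network genes to 0.14 for the 40 MYC-activated genes.

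Of 9 listed genes that MYC represses through MIZ1, only 5 had a row, and Cdkn1c, Cdkn2a, Cdkn2b and Ndrg2 had none. Of 5 tested, 2 fell, 1 rose and 2 did not pass, shares near the 28.8% lower and 25.9% higher of all tested genes. Gadd45a, a growth-arrest gene, rose 1.51-fold (39.6 ± 2.62 and 59.7 ± 0.27 CPM), and Ndrg1, a stress-response gene, fell 1.497-fold (131 ± 0.48 and 87.2 ± 2.18 CPM; SD, n = 3 each). Cdkn1a, the cell cycle inhibitor p21, fell by 0.16 ± 0.033 on the log2 scale (edgeR adjusted p = 0.0071), a call lost with upper-quartile scaling (-0.063, edgeR adjusted p = 0.18). Of 4 tested targets of MondoA and ChREBP, 2 rose and 2 fell, where 54.7% of all tested genes were called in either direction. Pklr, also on that list, had no row. With the replicate block none of the 4 was called higher and 1 was called lower. Txnip, the thioredoxin-interacting gene that reports MondoA activity, was at 23.0, 24.9 and 27.4 CPM with vehicle and at 48.7, 49.8 and 28.1 CPM with Dox (log2 fold change 0.75 ± 0.22 SE, edgeR adjusted p = 0.027). Dox replicate 3 was barely above the vehicle libraries, and the edgeR adjusted p was 0.053 to 0.082 without any 1 of the other libraries. Arrdc4, Khk and Gpd1 were near the threshold too (edgeR adjusted p = 0.049, 0.024 and 0.038), and each of these calls was lost without 1 or more of the libraries.

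The genes whose pattern over the 6 libraries was most like that of each member were found by the root mean square difference of log2 CPM, centred on the vehicle mean, among 9916 genes. For Myc, with its low value in Dox replicate 2, they were Ly6e (0.030), Swi5 (0.057) and Uckl1 (0.070). The nearest gene to Mnt was Atmin (0.035), to Mxd4 Tnfrsf1a (0.041), to Mxd3 Wdr6 (0.020), to Mxi1 Tbc1d22a (0.0058) and to Mxd1 Eif2b1 (0.041). The distances were largest for the partners with uneven replicates, 0.095 from Max to Wdr77 and 0.084 from Mlx to Mir6236. These distances are descriptions over libraries that share their depth and group, with no test.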

How the data were processed

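The authors deposited a table of raw counts per gene for the 6 libraries, aligned to GRCm38, made with tools that the submitters' processing notes list as HISAT2 2.1.0, StringTie 1.3.3, DESeq2 and, for read quality, FastQC 0.11.3. Neither the strand setting nor the handling of reads with several matches is stated in the labels. The authors deposited a second table of their comparison with log2 fold changes, p-values, a test statistic and standard error (scores in the units used here), and a mean normalised signal per gene, per the file headers. Here, genes were filtered with filterByExpr, scaled by TMM and tested with edgeR 4.0.16 (quasi-likelihood F test, Benjamini-Hochberg adjustment over 18067 genes, threshold 0.05). CPM values use the TMM-scaled totals. Replicates differed by more than counting noise. With 3 against 3 libraries an exact permutation test cannot go below p = 0.1, so only the fit across all genes was used. On simulated counts (17790 genes) the fit called 8, 34, 44 and 50 of 50 genes changed 1.25-, 1.5-, 2- and 4-fold, and 8 of 17590 unchanged genes. Only 200 genes were changed there, each with a mean of at least 50 counts, whereas 54.7% of genes were called in the data. These rates therefore do not give the share of real changes found here.

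The members and gene lists were chosen with earlier results of these data known. Named were all members, Klf13, Mga and Mlxip, and from each list up to 3 genes higher and 3 lower with the smallest p among those called. The alternatives were DESeq2 1.42.0 size factors and its Wald test, upper-quartile scaling, limma-voom (limma 3.58.1), no filter on low counts, a mean of at least 5 CPM, an adjusted p threshold of 0.01, a test against 1.2-fold (glmTreat), offsets for GC content and length, a replicate block, and each library left out. Same-numbered libraries did not deviate together (correlations 0.077, 0.058 and -0.094 in 14635 genes), and no pairing was assumed. Promoter windows came from RefSeq (GRCm38.p6).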

Additional observations from a re-analysis of the deposited data

How the results depend on the processing

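Under all 17 alternatives Myc, Mnt, Mxd3, Mxd4 and Mxd1 kept their direction and their call (edgeR, DESeq2 or limma adjusted p up to 0.016, for Myc against 1.2-fold). The size of the change was less stable for Mnt and Mxd3. With the GC offset their log2 fold changes were -0.62 and -0.55, outside the intervals given above (-1.01 to -0.70 and -0.82 to -0.58). Those of Myc (-0.51), Mxd4 (-0.82) and Mxd1 (0.80) stayed within their intervals with that offset. Mxi1 lost its call with upper-quartile scaling, the length offset, the threshold of 0.01 and the test against 1.2-fold. With upper-quartile scaling 3 of the MYC-activated genes fell. The log2 fold change of Max, never called, turned to 0.089 with that scaling, 0.013 with limma-voom, 0.0049 without the filter on low counts and 0.016 with a mean of at least 5 CPM, and that of Mlx to -0.021 with the length offset. Against 1.2-fold, 2417 genes were higher in all, and 11 of the MYC-activated genes were higher and 2 lower, since that test asks for a larger change. Skp2, Kdm5a, Eif4e, Cdkn1a, Txnip, Arrdc4, Khk and Gpd1 also lost their calls there. With each library left out, 1 to 2 network genes were higher, Max ranged from -0.21 to 0.12 and Mlx from -0.15 to 0.31, where Mlx was called without vehicle replicate 3. The cause of these changes was not tested beyond what is said.

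With the replicate block 1 network gene was higher and 5 were lower, 4602 genes were higher and 5097 lower in all, and Myc was at -0.56 (edgeR adjusted p = 0.0077). The pairing check gave no shared deviation between libraries of one number, and the block changed no call among the 8 network genes. Of the other named genes it ended the calls of Txnip, Arrdc4 and Gpd1 (edgeR adjusted p = 0.069, 0.11 and 0.063). Depth limits Tert, Khk and Gpd1, each with at most 41 counts in a Dox library, more than the network genes.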

Other observations

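Of the tested protein-coding genes within 20 kb of a network gene, Sgsm2, which lies 3536 bases from Mnt, had the largest fall. Sgsm2 encodes a regulator of small GTPases and was named after its values were seen. It was at 23.0, 24.1 and 22.6 CPM with vehicle and at 5.78, 5.51 and 6.04 CPM with Dox (log2 fold change -2.01 ± 0.056 SE, edgeR adjusted p = 1.9e-06). Mettl16, 2395 bases from Mnt, did not pass (0.11 ± 0.12, edgeR adjusted p = 0.49). Coasy, 658 bases from Mlx, rose by 0.40 ± 0.049 on the log2 scale (edgeR adjusted p = 0.00056).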
